A study of Xenopus tropicalis with 2 samples.

Results

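The BCL6 corepressor gene bcor and its relative bcorl1 were examined for thyroid hormone receptor (TR) occupancy in the brain of Xenopus tropicalis tadpoles. The peaks described are those that the deposited annotation pairs with either gene, plus peaks in no gene region within 100 kb of either gene on the same chromosome. This gave 15 of the 6302 peaks in the list, of which 12 were paired with bcor and 1 with bcorl1. The other two lay in no gene region upstream of bcorl1, and no such peak lay within 100 kb of bcor. A peak is paired with a gene when it touches the gene body or the 10 kb upstream of it. The locus was chosen by its measured peak count, since bcor held the most peaks of any gene, so that count is given as a description. For both genes the deposited name and the Xenbase description were the same gene.

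TR occupancy was profiled by chromatin immunoprecipitation and sequencing (ChIP-seq) in 2 samples, 1 precipitated with an antiserum to Xenopus TRs and 1 input library taken without precipitation. Both came from wild-type tadpoles at Nieuwkoop-Faber stage 62, the climax of metamorphosis, reared at 25 °C, and from the dissected middle brain with the preoptic area, hypothalamus and thalamus. There was no replicate, no tadpole without hormone and no other stage, so no test between conditions could be made. The signal is an average over all cells of the dissected region, so weak occupancy in many cells and strong occupancy in few cannot be told apart. A peak list does not measure expression, so the tissue label could not be set against marker genes.

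TRs are nuclear receptors that sit on response elements in DNA with or without hormone, and exchange corepressors for coactivators when hormone binds. The protein encoded by BCOR was identified in human cells as a corepressor that binds the zinc finger repressor BCL6. In mammals it is also a subunit of PRC1.1, a variant Polycomb complex that places ubiquitin on a core histone at unmethylated CpG-rich DNA. The related human protein BCORL1 binds the corepressor CtBP and several histone deacetylases.

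All 12 bcor peaks lay inside the gene body, in a pair of groups, and none was at the gene start. The gene (ENSXETG00000015528) covers 98.8 kb of the plus strand of chromosome 2, from 70575110 to 70673939 in the coordinates of the deposited list, whose genome build is not given in the sources used here. The first group held 3 peaks with summits from 6.36 to 8.03 kb past the start, and the second held 9 peaks from 37.9 to 63.3 kb past it. The nearest summits of the groups were 29.9 kb apart, with no other summit between them. From the last summit to the gene end, 35.6 kb held no further summit. Only the ends and strand of each gene are listed, so exons, introns and any internal promoter are not distinguished here.

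**Figure D1:**
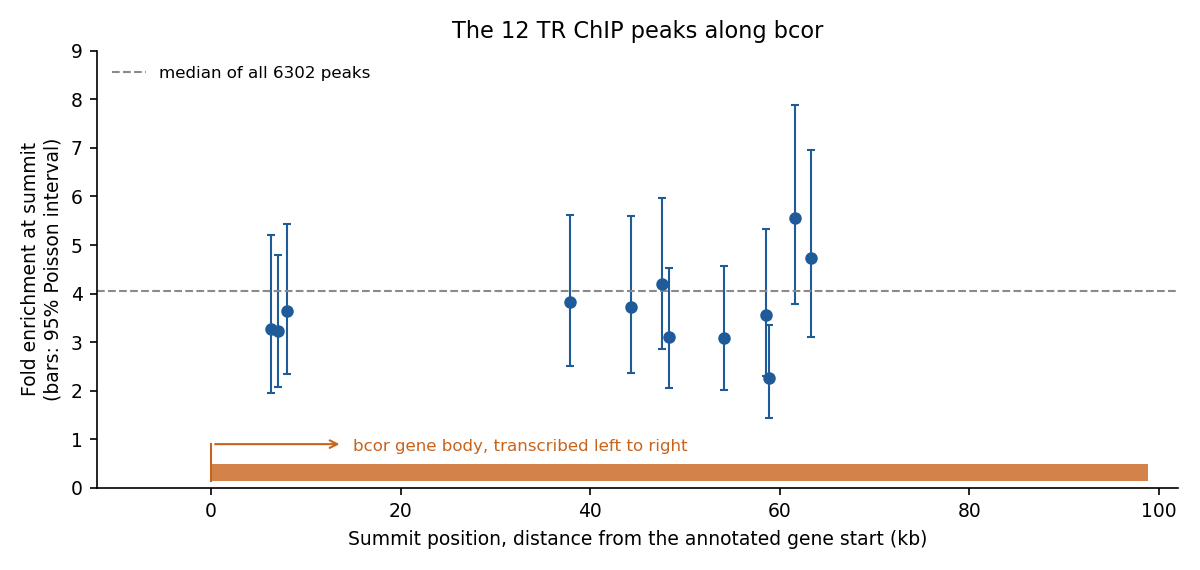
Fold enrichment of the 12 bcor peaks (points, with 95% Poisson intervals on the ChIP fragments as bars) against the distance of each summit from the annotated gene start in kb; the bar at the bottom is the gene body and the dashed line the median fold of all 6302 peaks. The peaks form a group of 3 near 7 kb and a group of 9 between 37.9 and 63.3 kb, with 3 of the 12 above the median of 4.06.

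The first group, 6.36 to 8.03 kb past the gene start, was compact. Its 3 peaks spanned 70581313 to 70583202, and their summits were 763 and 908 bp apart. Each fold is the authors' enrichment over expected background at the summit, and the ChIP fragments behind it were solved from the fold and its p-value. The peak at 6.36 kb had a fold of 3.28 (95% Poisson interval 1.96 to 5.20) from 16 fragments, the fewest of the 12. The peak at 7.12 kb had a fold of 3.22 (2.07 to 4.80) from 22 fragments. The peak at 8.03 kb had a fold of 3.64 (2.34 to 5.43), also from 22 fragments. The 3 intervals overlapped one another, and all 3 folds lay under the median of all peaks, 4.06.

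The larger group spanned 70612733 to 70639133 and held the highest and the lowest folds of the gene. At its upstream edge, the peak at 37.9 kb had a fold of 3.83 (2.51 to 5.62) and that at 44.3 kb one of 3.72 (2.37 to 5.60). Next came a close pair with summits 686 bp apart, with folds of 4.20 (2.86 to 5.97) at 47.6 kb and 3.11 (2.05 to 4.53) at 48.3 kb. The peak at 54.1 kb had a fold of 3.09 (2.01 to 4.58). All 5 rested on 21 to 29 ChIP fragments, and their intervals overlapped.

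The highest fold stood beside the lowest one. The peak at 58.5 kb had a fold of 3.57 (2.29 to 5.32), and 321 bp further on the peak at 58.8 kb had the lowest of the 12, 2.25 (1.45 to 3.36). This pair was separated by only 79 bp of sequence outside a peak. The highest fold followed at 61.6 kb, with 5.55 (3.78 to 7.89) from 29 fragments (70636465 to 70637595), and the last peak at 63.3 kb had 4.74 (3.10 to 6.96). The Poisson intervals of the highest and the lowest peak did not overlap, but those intervals leave out the error of the background.

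The last peaks of the group were also the widest. They were 1131 bp at 61.6 kb and 1192 bp at 63.3 kb, whereas the other 10 ran from 214 to 593 bp. Of all peaks in the list, 137 (2.17%) were wider than 1000 bp. Together the 12 peaks covered 5751 bp, or 5.82% of the gene.

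The bcor peaks were many but individually modest. Their median fold was 3.61 (range 2.25 to 5.55), against 3.98 over the 1415 peaks that lay inside gene bodies more than 1 kb from a start. Folds exceeded the median of all peaks in 3 of 12, namely those at 47.6, 61.6 and 63.3 kb. The same 3 peaks were the ones above the median of the −log10 adjusted p-value, with 7.78, 11.1 and 7.64 against 5.82. The peak at 58.8 kb had a value of 1.43, close to the lowest of the whole list, 1.31.

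The median background at bcor was above that of the intragenic peaks, which include those of bcor, and close to that of all peaks. Median ChIP fragments at the summit were 22.5 (range 16 to 29) for bcor against 20 for intragenic peaks and 24 for all peaks. The median expected background was 5.49 fragments (range 4.19 to 9.22) for bcor against 4.30 for intragenic peaks and 5.53 for all. Over all 12 summits, 279 ChIP fragments stood against 69.7 expected, a ratio of 4.0. The highest background, 9.22, belonged to the peak with the lowest fold.

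**Figure D2:**
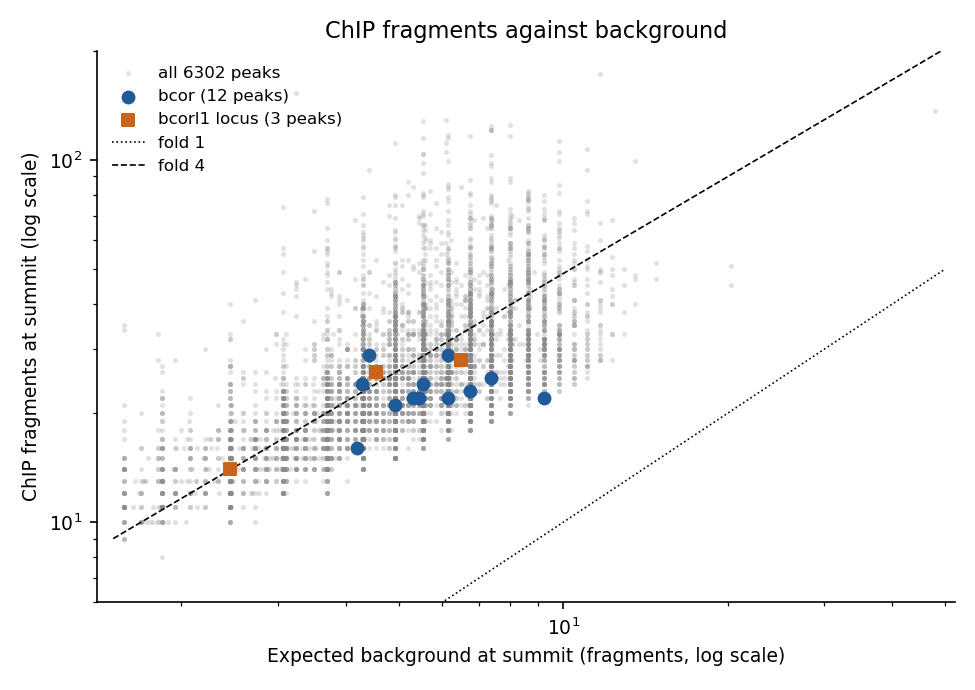
ChIP fragments at the summit against the expected background in fragments, both on log scales, for all 6302 peaks (grey), the 12 bcor peaks (blue circles) and the 3 peaks of the bcorl1 locus (orange squares); lines mark folds of 1 and 4 with the pseudocount of the peak caller. Most bcor peaks lie under the line for a fold of 4, at backgrounds of 4.19 to 9.22 fragments.

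The control tags behind each background could also be inferred from the list. At 64.9% of all peaks the background was a whole multiple of 0.6144 fragments, taken as the weight of 1 control tag. On that reading, tags overlapping the summit set the background at 7 bcor peaks. A 1 kb window set it at 4 and a 10 kb window at 1. At the former 7 it rested on 8 to 15 control tags. The ratio of ChIP to scaled control, with the counting error of both and no pseudocount, was 2.39 (exact 95% interval 1.18 to 4.95) at the peak at 58.8 kb. It was 6.58 (3.87 to 11.1) at the peak at 61.6 kb. With both errors included, these intervals overlapped, which by itself does not decide the order of the peaks. They were picked as the highest and lowest of the 12, and their difference was not tested. The lower bound was above 1 at all 12 peaks, which were listed for being high.

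No peak lay at the annotated start of bcor, and the nearest summit was 6.36 kb away. This was not unusual among genes with many peaks. Of the 119 genes with 4 or more peaks, 46 (38.7%) had no summit within 1 kb of the start. Among those 119 genes, 77 had peaks paired with no other gene, as bcor did, and 22 of the 77 had no summit within 1 kb.

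Counting every listed peak, bcor held more than other genes of its length, which follows from its choice as the gene with the most peaks. Of 340 genes with a peak and a length of 80 to 120 kb, 224 (65.9%) had 1 peak, 94 had 2 or 3, and 22 had 4 or more. The highest count among them after bcor was 9, at r3hdm1 (81.8 kb), whose 9 peaks also had no summit within 1 kb of the start. Among the 679 genes longer than bcor the highest count was also 9, at celf2, which encodes an RNA-binding protein, and at cfl1. Of the 9 peaks of cfl1 only 1 was paired with no other gene, and at celf2 all 9 were. The lead depended on the peaks counted: among the 3151 peaks with the highest −log10 adjusted p-value bcor held 3 and ranked 30, and with summits within 1 kb merged it held 8, tied with 3 other genes. By peaks per 10 kb of gene region it ranked 59 of 270 genes with at least 3 peaks.

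**Figure D3:**
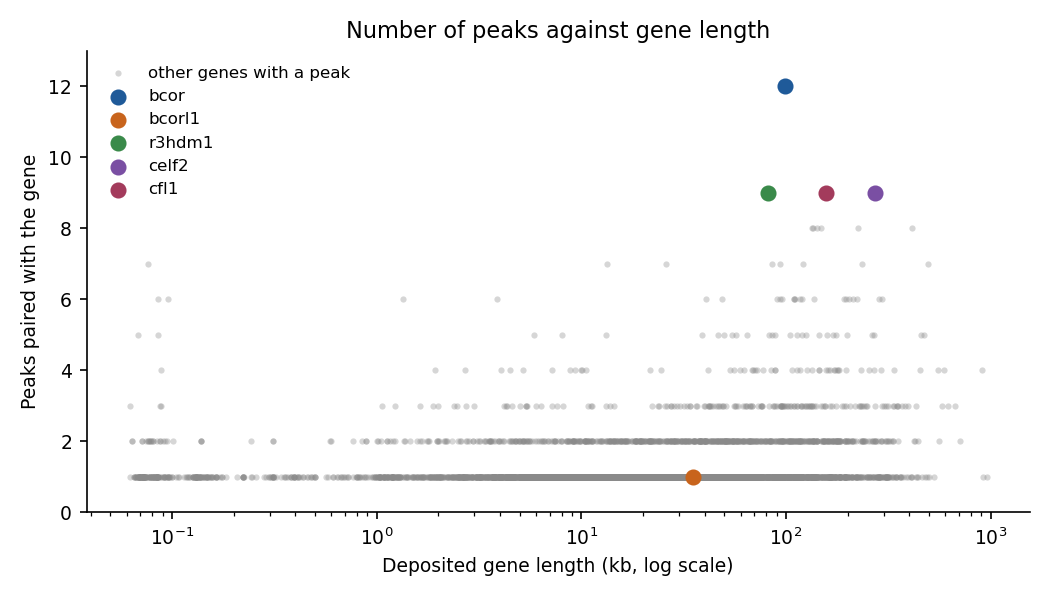
Number of peaks paired with each gene against its deposited length in kb on a log scale, for all 5285 genes with a peak (grey), with bcor, bcorl1 and the 3 genes next after bcor in colour. The bcor point stands at 12 peaks and 98.8 kb, above 9 peaks at r3hdm1, celf2 and cfl1.

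Every other gene has fewer peaks than bcor, by the choice of bcor. The 3 genes nearest to it in length, among those with at least 4 peaks, are given for scale. They were runx1t1 (95.6 kb, 6 peaks), which encodes a corepressor of the ETO family, ppia (93.4 kb, 6 peaks), which encodes a cyclophilin, and ENSXETG00000024374 (93.1 kb, 7 peaks), which had no usable name. Summits lay 0.333 kb from the start of runx1t1 and 0.146 kb from that of ppia, whereas ENSXETG00000024374, like bcor, had none within 1 kb. Their median folds were 3.42, 4.43 and 5.98, and that of bcor lay between the lowest and the highest of these. All 6 peaks of runx1t1, 2 of 6 at ppia and 0 of 7 at ENSXETG00000024374 were paired with no other gene.

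The bcor peaks stood close together in an otherwise empty stretch. The median distance between neighbouring summits was 2.81 kb within bcor against 94.7 kb over all sequences. Of the 11 distances in bcor, 10 were at or under 10 kb, against 17.1% of all distances. Because bcor was chosen for its number of peaks, short distances follow in part from that choice and are given as a description. The 12 summits spanned 56.9 kb, and in the whole list 3 regions held 12 summits in a span that short. The other two surrounded the microRNA genes mir-9a-2 on chromosome 1 and mir-9-3 on chromosome 3, where many of the peaks lay in no gene region (13 of 20 and 7 of 14).

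Beyond the gene itself, no peak lay within 100 kb on either side. The median distance between neighbouring summits over all sequences was 94.7 kb. The nearest listed peak upstream of bcor lay 128 kb from its start, with a fold of 5.11 (3.35 to 7.51), and the nearest one downstream lay 489 kb from its end, with a fold of 3.02. The nearest genes with a peak were med14, a Mediator subunit gene, 393 kb upstream, and mid1ip1, 490 kb downstream. In the gene order of the reference table (assembly UCB_Xtro_10.0, used for order only), cxorf38 and atp6ap2 lie between med14 and bcor, and neither had a peak. The nearest genes with a peak were sought among all 5285, including the 336 without a usable name. The neighbours in the reference order were matched by name only.

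At bcorl1 the pattern was different, with a single peak just upstream of the start. The gene (ENSXETG00000007610) covers 35.2 kb of the minus strand of chromosome 8, from 33866476 to 33901671. Its peak (33902088 to 33902334, 247 bp wide) had a summit 548 bp upstream of the start and was paired with no other gene. The fold was 3.88 (2.62 to 5.54), from 28 ChIP fragments over a background of 6.48. That background was assigned to a 1 kb window with 50 control tags. The −log10 adjusted p-value was 6.66, above the median of all peaks, while the fold was below the median. No peak lay inside the bcorl1 gene body.

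Further upstream of bcorl1, 2 peaks lay in no gene region. The nearer one (33938174 to 33938640) had its summit 36.6 kb upstream and a fold of 4.88 (3.25 to 7.06) from 26 fragments over 4.54. The farther one (33944093 to 33944552), at 42.6 kb, had a fold of 4.34 (2.50 to 7.08) from 14 fragments over 2.46. The background of this farther peak was inferred to rest on 4 control tags. Both folds were above that of the peak near the start, but all 3 intervals overlapped. Downstream of bcorl1 the nearest listed peak lay 262 kb away. The nearest gene with a peak on the upstream side was slitrk4, 865 kb away, and in the reference order thrsp, tspan6 and sox3 lie between it and bcorl1 without a listed peak.

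**Figure D4:**
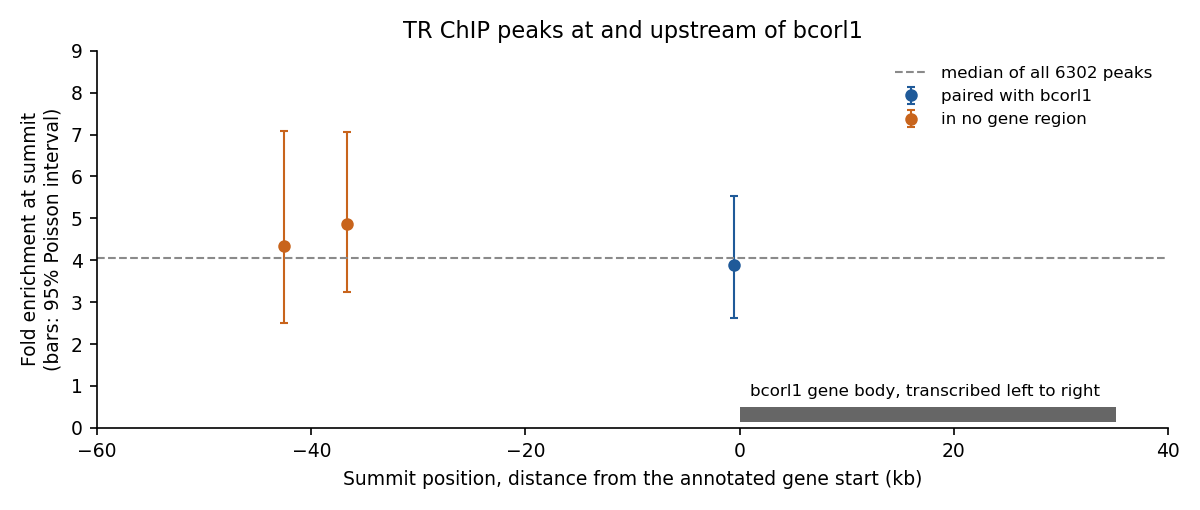
Fold enrichment of the peak paired with bcorl1 (blue) and of the 2 peaks in no gene region upstream of it (orange), with 95% Poisson intervals, against the distance of each summit from the annotated gene start in kb; the bar is the gene body. The folds are 3.88 at 0.548 kb upstream, 4.88 at 36.6 kb and 4.34 at 42.6 kb, and the intervals overlap.

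The highest bcor peak and the bcorl1 peak were similar in ChIP fragments, 29 against 28, and differed in background, 4.41 against 6.48. Their folds were 5.55 and 3.88, and the intervals overlapped. The bcor peak was picked as the highest of 12, and the median fold at bcor, 3.61, was below the fold at bcorl1. At bcor, which was chosen by its peak count, 12 peaks lay inside the gene and none near its start. At bcorl1 the 1 paired peak lay near the start and none inside. Of the 4658 named protein-coding genes with a peak, 73.8% had a summit within 1 kb of the start, as bcorl1 did.

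Genes taken as partners of BCOR, or as corepressors and deacetylases that act with BCL6, BCOR or BCORL1, were examined as a list. It was drawn up by role from knowledge of mammals and is not limited to subunits of a BCOR complex. Earlier results of these data were known when the list was chosen, so its share with a peak is only a description. Of the 27 genes reported, 26 were matched to the reference table, and 16 of these (61.5%) had a listed peak. The background was 29.8% of the 15629 named protein-coding genes. Gene length was not matched in that background, and longer genes can hold more peaks. The median of the highest fold per gene was 4.61 over the 16 genes, against 4.37 over all named protein-coding genes with a peak.

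Of the 9 genes listed under PRC1.1, 6 (66.7%) had a peak, against 29.8% of all named protein-coding genes, not matched for length. Whether each product is a subunit was not tested. The deubiquitinase gene usp7 had a fold of 5.25 (3.44 to 7.71) with its summit 701 bp past the start, and skp1 had 5.17 (3.64 to 7.13) at 3.14 kb upstream. The gene rybp, whose product binds the RING subunits, had a fold of 4.67 (2.53 to 8.05) at 35.4 kb, from 11 fragments over 1.57. That background equals the lowest of all peaks in the list. The gene kdm2b, whose product brings the complex to CpG-rich DNA, had 3 peaks, the highest with a fold of 4.28 (2.95 to 6.01) at 60.2 kb, and 1 of the 3 was also paired with orai2. The lowest folds of this group were 3.21 (1.97 to 4.98) at the ubiquitin ligase gene rnf2, 106 bp past the start and paired also with edem3, and 3.0 (2.0 to 4.35) at cbx8, 101 bp past it. No peak was listed for pcgf1, ring1 or yaf2, of which pcgf1 encodes the Polycomb RING finger subunit particular to this complex.

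Of the 6 matched genes listed as recruiting factors, 3 (50%) had a peak, against the same 29.8% of all named protein-coding genes. Whether each product binds BCOR was not tested. The gene bcl6 had 2 peaks, the higher at 1.34 kb past the start with a fold of 4.68 (3.07 to 6.87). The related repressor gene zbtb16 had 4 peaks, the highest at 54.6 kb with a fold of 4.47 (2.87 to 6.66). The gene mllt3 had a peak 453 bp past its start with a fold of 4.50 (3.04 to 6.43), which was also paired with focad. The gene entry of zbtb16 carries another name in the deposited list and was identified by the NCBI number of its description. A gene entry deposited as irf8 had a peak, but its description names another gene, so that peak was not counted for irf8. No peak was therefore listed for zbtb17, mllt1 or irf8, and bcl6b was not matched to the reference table.

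Corepressors and deacetylases that act with BCL6, or with BCOR and BCORL1, had a peak in 7 of 11 cases (63.6%). The share of all named protein-coding genes, not matched for length, was 29.8%, and the count is only a description. The highest folds were at tbl1xr1, 7.55 (5.42 to 10.2), and tbl1x, 5.54 (3.98 to 7.52), both subunits of the NCoR complex, with summits 69 and 249 bp upstream of the start. The gene of NCoR itself, ncor1, had 5.23 (3.58 to 7.40) at 163 bp upstream, and this peak was paired also with pigl. The CtBP gene ctbp1 had 5 peaks, the most in the list, with a highest fold of 5.12 (3.32 to 7.58) deep in the gene at 222 kb. Among the deacetylase genes, sirt1 had 4.54 (3.23 to 6.21), hdac4 3.60 (2.21 to 5.58) and hdac3 3.07 (2.17 to 4.22). None was listed for hdac1, hdac2, hdac5 or hdac7.

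**Figure D5:**
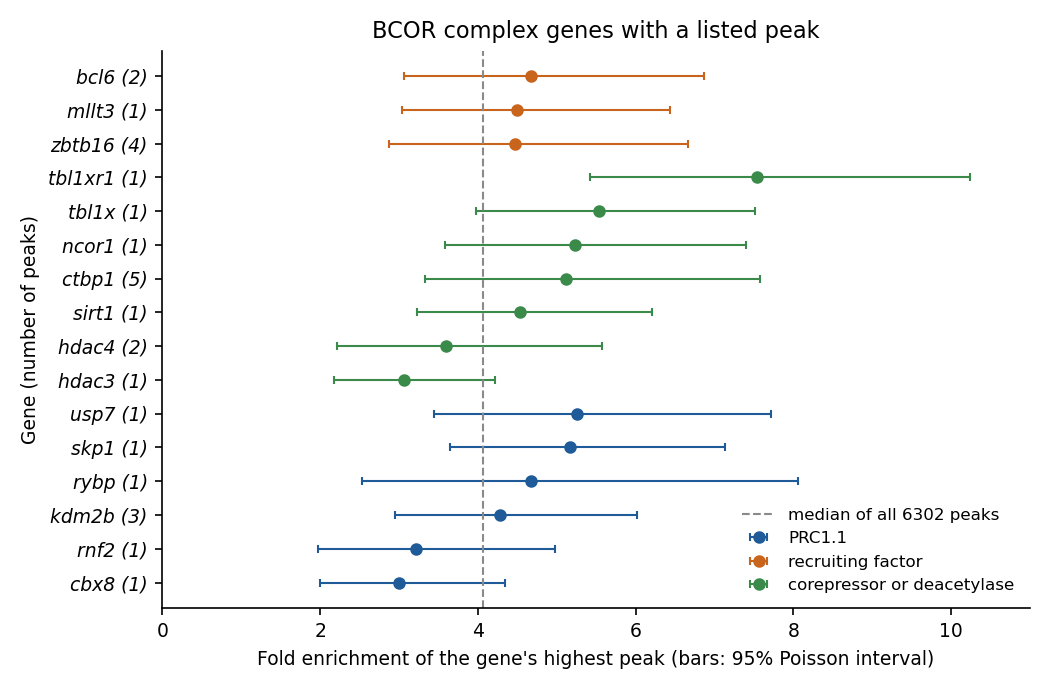
Fold enrichment of the highest peak of each of the 16 list genes with a listed peak, with 95% Poisson intervals, coloured by role. The title calls the list BCOR complex genes, but it also holds genes that act with BCL6. The number of peaks is in brackets after each gene, and the dashed line is the median of all 6302 peaks. The fold runs from 3.0 at cbx8 to 7.55 at tbl1xr1, and the interval of tbl1xr1 is the only 1 of 16 that lies wholly above the line. The line is over single peaks, whereas each point is the highest peak of a gene. The median of that highest fold over all named protein-coding genes with a peak was 4.37.

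With 12 peaks, bcor had more than any gene of this list, as its choice by peak count fixed in advance. Within the list ctbp1 had the most, 5. The highest fold at bcor, 5.55, was close to that at tbl1x and below that at tbl1xr1.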

How the data were processed

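The deposited peak list, with 7848 rows that each join a peak to a gene or to none, was the only file used. BWA 0.7.17 and MACS2 2.2.6 are among the tools named, per the submitters' processing notes. The aligner settings, peak threshold and genome build are not given in the sources used here. In the deposited list, enrichment is a linear fold over background at the summit, significance is given as a −log10 p-value and a −log10 adjusted p-value, and the deposited score is 10 times the latter, rounded down. Peak widths and summit offsets are in bp, as deposited.

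ChIP fragments and background were solved from fold = (ChIP + 1) / (background + 1) and the upper Poisson tail. All 6302 peaks were solved within 0.0001 (largest misfit 2.48e-05 in −log10 p). The solution was also run on 500 simulated peaks made with the same formulas, with every background on a whole step. That run checks the code and cannot show whether the formulas hold for these data. In 64.9% of peaks the solved background was a whole multiple, to within 0.0005, of a step of 0.6144 fragments. The fragment length for the wider windows was taken as 211 bp, the narrowest peak. Poisson and Clopper-Pearson intervals are exact 95% intervals and cover counting error only. Total depths are not known.

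Names came from the NCBI number in the description where there was one, and otherwise were kept only with a Xenbase, RefSeq, miRBase, UniProt or RFAM description. Groups within bcor were split at summit distances over 10 kb, a value chosen after the summits were seen, as was the length range of 80 to 120 kb. The members and lists were chosen with earlier results of these data known. Besides the 27 genes of the list of partners that are reported, 1 more is not reported here and enters no count. Named genes were the members, the list of partners, the genes next in number of peaks, neighbours with a peak and the 3 genes nearest in length. The neighbours without a peak and the microRNA genes were named after their values were seen. With 1 library per group, no test between groups was made. Computation used Python 3.11.15, scipy 1.17.1 and pandas 2.3.3.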

Additional observations from a re-analysis of the deposited data

Results flagged for a closer look

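A set of 3 peaks in no gene region lay 128 to 134 kb upstream of bcor, outside the 100 kb used for the locus and outside every gene comparison. Their folds were 3.48 (95% Poisson interval 2.32 to 5.04), 2.96 (1.91 to 4.42) and 5.11 (3.35 to 7.51), from 26, 22 and 24 ChIP fragments. Whether they belong to bcor was not tested.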

How the results depend on the processing

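The number of bcor peaks rests on peaks of modest significance. With the 3151 peaks of highest −log10 adjusted p-value, bcor held 3 peaks in place of 12 and ranked 30 by count, tied with 30 other genes. With the strongest 1000 peaks bcor and bcorl1 held 0, so bcor had no rank there. Of the list genes, 2 (tbl1x and tbl1xr1) had a peak in place of 16. The share of all named genes with a peak under that cut is not given here, so the 2 are a count only. Fewer peaks are counted in both settings by construction. By peaks per 10 kb of gene region bcor ranked 59 of 270 genes with at least 3 peaks, and 1 of the 177 among these that were 50 kb or longer, a limit chosen after seeing the data. With summits within 1 kb merged, bcor held 8 and tied with 3 other genes. Counting only summits inside the gene body left bcor at 12 and bcorl1 at 0. A window of 200 kb added 3 peaks in no gene region at bcor. Of 26 alternatives, the other 18 stayed within 1.5 times the value or kept the rank, including a median fold of 4.09 without the pseudocount. With names as deposited 16 list genes had a peak, of which 15 were shared, with irf8 in place of zbtb16. With 1 library, chance variation between samples is unknown.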
